A study of Mus musculus with 8 samples.

Results

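The 7 genes followed here mark the enteroendocrine cells of the gut and were taken by name from a table of 14247 genes measured in colonic crypts over the day: the granins Chga and Chgb, the hormone genes Gcg, Pyy and Insl5, the serotonin enzyme gene Tph1 and the transcription factor gene Neurod1. All 7 of 7 were in the table and all 7 passed the filter on low values. Crypts came from the large intestine of wild-type mice killed 0, 6, 12 or 18 h after lights on (zeitgeber times ZT0, ZT6, ZT12 and ZT18) under 12 h of light and 12 h of dark, with 2 libraries per time point (replicate 1 and replicate 2) and 8 in all. The methods of the study place its mice on a C57BL/6 background at 2 to 4 months of age, and no treatment, transgene or Cre driver is given for these samples. The study describes its samples as mice, but the labels do not tie each library to an animal, so the p-values measure the spread between these libraries.

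Enteroendocrine cells are scattered, rare secretory cells of the intestinal epithelium that sense the lumen and release peptides or serotonin from dense granules. Enterochromaffin cells make serotonin and carry much chromogranin, whereas L cells make proglucagon peptides and peptide YY and, in the colon and rectum, insulin-like peptide 5. In bulk RNA, fewer such cells and less RNA per cell cannot be told apart, and the piece of colon from which crypts are taken sets which of these cells are sampled.

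Stretches before RefSeq start sites are shown first, for the granin genes Chga and Chgb, which both hold a cyclic AMP response element (CRE) there, and for the hormone genes Gcg and Pyy, which do not. Tph1 and Neurod1, whose levels also followed the granins across the libraries, hold no CRE either, and neither does Insl5. Sequences are from RefSeq (build GRCm38.p6), whose promoter table matched 7 of the 7 genes with 10 entries of 250 bases before and 50 bases after a start. Capitals mark the CRE in Chga and Chgb, and in Gcg the letters of the bHLH site CATCTG and of the TATA box TATAAA on either strand. The Pyy stretch holds none of the letters searched. The Chga line is chr12:102554841-102554940 on the plus strand, the Chgb line chr2:132781559-132781588 on the plus strand, the Gcg line chr2:62483654-62483753 on the minus strand and the Pyy line chr11:102107833-102107932 on the minus strand. The Chgb line lies before the RefSeq start but within the Chgb gene of GENCODE M21, where it overlaps 1 annotated exon.
Chga: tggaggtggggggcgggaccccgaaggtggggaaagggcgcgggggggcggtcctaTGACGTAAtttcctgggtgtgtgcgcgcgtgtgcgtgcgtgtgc
Chgb: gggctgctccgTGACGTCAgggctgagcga
Gcg: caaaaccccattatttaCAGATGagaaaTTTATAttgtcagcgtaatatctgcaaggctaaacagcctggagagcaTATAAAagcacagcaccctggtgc
Pyy: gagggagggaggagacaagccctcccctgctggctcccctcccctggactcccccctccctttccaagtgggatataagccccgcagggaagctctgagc

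The CRE was searched as TGACGTNA on both strands and starts 44 bases before the RefSeq start in Chga and 72 bases before it in Chgb. It was found in 2 of the 7 genes and in 2.93% of the 32851 promoters, and it was added after the sequences and values had been seen. TATAAA, also added then, was found in Chga, Gcg and Insl5, against 13.6% of promoters. The bHLH site CATCTG, a form of the E-box that factors such as NEUROD1 can bind, was found in Gcg and Insl5, against 17.2% of promoters. Among motifs of clock factors, 0 of the 7 genes held the E-box CACGTG (7.15% of promoters), the D-box TTATGNAA (3.38%) or the REV-ERB element TAGGTCA (2.61%). These are matches of letters in 1 window, not tests of binding.

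Depth was between 14722342 and 25159440 recovered reads per library. The epithelial marker Epcam stood between 26494 and 33705 normalised counts (read counts divided by a size factor per library), so that all 8 libraries were epithelial by this marker. The libraries differed in what else they held: all 5 measured smooth muscle markers and all 6 fibroblast markers were highest in ZT12 replicate 1, where Myh11 had 1662 normalised counts against 80.7 in the next library, and 3 of 4 B and plasma cell markers were highest in ZT0 replicate 2. ZT18 replicate 1 was the deepest library and yet had 769 genes at 0 reads, against 29 to 462 in the others.

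**Figure D1:**
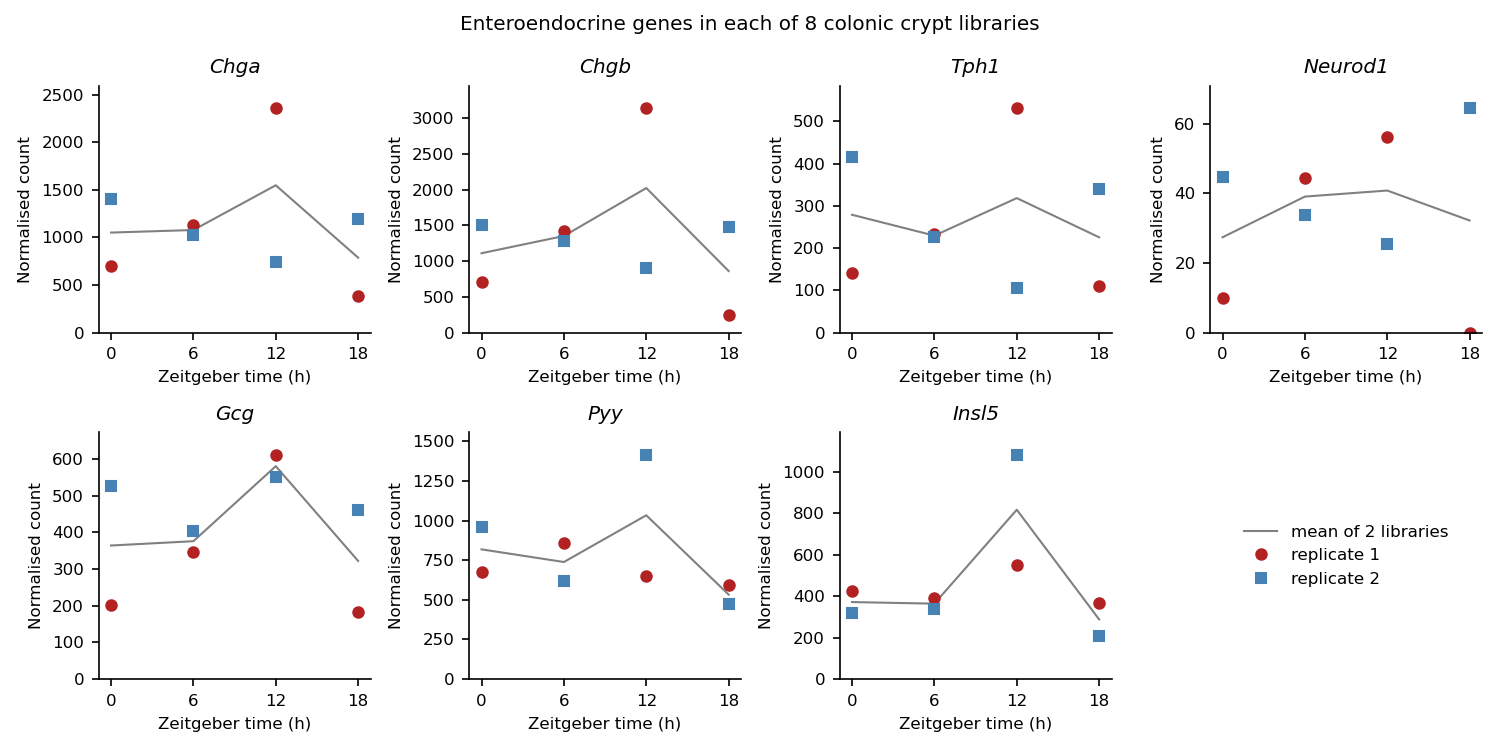
Normalised count of each enteroendocrine gene against zeitgeber time (h), with 1 point per library (circles replicate 1, squares replicate 2) and a line through the means of the 2 libraries. At ZT12 the replicates of Chga stand at 2356 and 740, and those of Insl5 at 552 and 1081, in the opposite order.

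Chga and Chgb were the granins among the genes followed here. They encode chromogranin A and B, soluble proteins that help to form the secretory granule. Chga (ENSMUSG00000021194, chromosome 12, 102554969 to 102565028, plus strand, GENCODE M21) had normalised counts in replicates 1 and 2 of 696 and 1406 (ZT0), 1132 and 1024 (ZT6), 2356 and 740 (ZT12), and 379 and 1195 (ZT18). The highest and the lowest library both belonged to replicate 1, and the ZT12 libraries enclosed both of ZT6. Time-point means in the same order were 1051 ± 502, 1078 ± 76.7, 1548 ± 1142 and 787 ± 577 normalised counts (SD, n = 2 each).

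Chgb (ENSMUSG00000027350, chromosome 2, 132781278 to 132795079, plus strand) had normalised counts in replicates 1 and 2 of 710 and 1510 (ZT0), 1421 and 1282 (ZT6), 3136 and 909 (ZT12), and 248 and 1474 (ZT18). It covered a 12.7-fold range between ZT18 replicate 1 and ZT12 replicate 1, wider than the 6.21-fold range of Chga. Both extremes were again single libraries of replicate 1. From ZT0 to ZT12 the log2 fold change was 0.42 (SE 0.62) for Chga and 0.70 (SE 0.79) for Chgb, with limma adjusted p of 0.835 and 0.783. Without ZT12 replicate 1 both turned to -0.42 and -0.19, and without ZT0 replicate 1 that of Chga turned to -0.09.

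Tph1, which encodes the rate-limiting enzyme of serotonin synthesis in the gut, followed the granins by library. Tph1 (ENSMUSG00000040046, chromosome 7, 46644641 to 46672537, minus strand) had normalised counts in replicates 1 and 2 of 141 and 417 (ZT0), 233 and 226 (ZT6), 531 and 106 (ZT12), and 110 and 341 (ZT18). The highest and the lowest library were thus replicates of the same time point, 5.01-fold apart. Mast cells also express Tph1, and 3 of the 10 mast cell markers listed were in the table. Cma1 was at most 32.5 and Tpsb2 at most 18.8 normalised counts, both highest in ZT18 replicate 1, where Tph1 had 110. Kit was instead lowest there at 378, and was highest at 1373 in ZT18 replicate 2, where Tph1 had 341. The part of mast cells in the level of Tph1 was not tested.

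Neurod1 encodes a bHLH transcription factor of the enteroendocrine lineage. Neurod1 (ENSMUSG00000034701, chromosome 2, 79452521 to 79456751, minus strand) had normalised counts in replicates 1 and 2 of 9.93 and 44.8 (ZT0), 44.4 and 33.7 (ZT6), 56.2 and 25.4 (ZT12), and 0 and 64.3 (ZT18). It was the lowest of the 7 genes and rested on 287 reads over all libraries, and its lowest and highest libraries were the replicates of ZT18. A count of 0 reads allows up to 3, or 2.56 normalised counts in that library, so ZT18 replicate 2 was at least 25.1-fold higher (counting error only). Cerkl and the antisense gene Gm26755 overlap Neurod1, and since strand use in counting is not stated, its reads are uncertain.

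Gcg encodes proglucagon, from which L cells cut GLP-1 and its relatives. Gcg (ENSMUSG00000000394, chromosome 2, 62474530 to 62483650, minus strand) had normalised counts in replicates 1 and 2 of 202 and 527 (ZT0), 347 and 405 (ZT6), 611 and 550 (ZT12), and 182 and 462 (ZT18). Its ZT12 libraries were the 2 highest of the 8, and the replicates were close there, at 581 ± 43.5 (SD, n = 2), whereas replicate 1 was low at both ZT0 and ZT18. The log2 fold change was 0.83 (SE 0.49) from ZT0 to ZT12 and -0.996 (SE 0.49) from ZT12 to ZT18, with limma adjusted p of 0.593 and 0.582.

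Pyy encodes peptide YY, a hormone that slows gut transit and reduces appetite. Pyy (ENSMUSG00000017311, chromosome 11, 102106676 to 102107832, minus strand) had normalised counts in replicates 1 and 2 of 678 and 959 (ZT0), 857 and 620 (ZT6), 653 and 1415 (ZT12), and 592 and 475 (ZT18). Both ZT18 libraries lay below all others, and the ZT12 mean of 1034 ± 539 (SD, n = 2) was carried by replicate 2. From ZT12 to ZT18 the log2 fold change was -0.86 (SE 0.35; limma adjusted p 0.544), and from ZT0 to ZT12 it was 0.25 (SE 0.35; adjusted p 0.828), which turned to -0.31 without ZT12 replicate 2.

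Insl5 encodes insulin-like peptide 5, a hormone of L cells of the distal gut. Insl5 (ENSMUSG00000066090, chromosome 4, 103017872 to 103026842, minus strand) had normalised counts in replicates 1 and 2 of 424 and 319 (ZT0), 391 and 337 (ZT6), 552 and 1081 (ZT12), and 367 and 208 (ZT18). The ZT12 libraries were the 2 highest and did not overlap with any other time point. The log2 fold change was 1.07 (SE 0.37) from ZT0 to ZT12 and -1.48 (SE 0.37) from ZT12 to ZT18, with limma adjusted p of 0.413 and 0.4999. DESeq2 on the recovered reads called Insl5 over the 4 time points (adjusted p 0.0267) and for ZT18 over ZT12 (adjusted p 0.0246, log2 fold change -1.50); it called 1.61% and 0.748% of all genes in these comparisons. Leaving out each library in turn, chosen after the data were seen, left each DESeq2 call in 4 of 8 refits; the first reached an adjusted p of 0.749 and the second 0.324 without ZT12 replicate 2. Both calls were also lost without either ZT6 library, the first without ZT0 replicate 2 (0.0614) and the second without ZT18 replicate 2 (0.101).

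Per kilobase of exon, Pyy was the highest of the 7, with a mean of 1238 normalised counts per kb and a range of 752 to 2242 over the libraries. Insl5 followed with 635 (288 to 1494), Chgb with 488 (90.4 to 1144), Chga with 405 (138 to 855) and Gcg with 275 (122 to 409), ranges that overlap between neighbours. Tph1 with 42.6 (17.2 to 86.0) and Neurod1 with 12.8 (0 to 23.6) were lowest, and no library of Tph1 reached the lowest of Gcg. The length used for Tph1 counts all of its annotated exons, long forms included.

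The time points allow a test of which genes follow the time of day, which the study asked mainly of apoptosis genes. A 24 h cosine fitted with limma called 0 of the 7 genes, against 0.118% of the 13503 genes tested. The F-test over the 4 time points called 0 of 7, against 0.0889% of all genes. At an unadjusted p under 0.05 the limma cosine took 0 of 7 (9.15% of all genes) and the F-test took 1 of 7, Insl5 (7.03%). DESeq2 called 0 of 7 for the cosine at an adjusted p under 0.05 (1.62% of the genes it adjusted). Insl5 had an unadjusted DESeq2 p of 0.0284 for the cosine and an adjusted p of 0.352. edgeR called 0 of 7 in the cosine (0.0889% of all genes) and in the F-test (0.0741%). The fitted cosine amplitudes, on the log2 scale from mean to peak, were 1.21 for Neurod1, 0.68 for Chgb, 0.57 for Insl5, 0.45 for Gcg, 0.40 for Chga, 0.26 for Pyy and 0.12 for Tph1, with limma adjusted p between 0.597 and 0.982. Single libraries moved these amplitudes: that of Neurod1 was 0.45 without ZT18 replicate 1 and 2.25 without ZT18 replicate 2, that of Chgb 0.36 and 1.04 without the same libraries, and that of Insl5 0.27 without ZT12 replicate 2. With DESeq2 the amplitude of Neurod1 was 0.32.

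For single contrasts limma called 0 of 7 each time, against 0.0444% of genes for ZT6 over ZT0, 0.0667% for ZT12 over ZT0, 0.0% for ZT18 over ZT0, 0.0% for ZT12 over ZT6, 0.0444% for ZT18 over ZT6 and 0.0296% for ZT18 over ZT12. edgeR also called 0 of 7 each time, against 0.037%, 0.037%, 0.0%, 0.0%, 0.0518% and 0.00741% of genes for these contrasts in the same order. At an unadjusted p under 0.05 these contrasts took 4.13%, 9.96%, 5.02%, 6.78%, 6.71% and 9.03% of all genes; of the 7, Insl5 was among them for ZT12 over ZT0, for ZT12 over ZT6 and for ZT18 over ZT12, and Pyy for ZT18 over ZT12. The exact rank test took 0 of 7 at a within-gene p under 0.05 (2.06% of all genes) and 0 of 7 after adjustment (0.0%). The smallest within-gene p this rank test allows is 0.019 for a peak at a sampled hour and 0.114 between them, too large to pass the adjustment here, so its adjusted count carries no information. For scale, Dbp, a clock output gene, went from 26.8 and 21.5 normalised counts (ZT0) to 1593 and 1113 (ZT12) and passed the cosine (limma adjusted p 4.01e-05), whereas Arntl, which encodes BMAL1, did not (adjusted p 0.0831).

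The libraries of 2 time points were apart for at most 3 of the 7 genes. For ZT12 over ZT0 this held for 2 of 7, Gcg and Insl5 (41.1% of all genes), for ZT12 over ZT6 for the same 2 (45.7%), and for ZT18 over ZT12 for 3, Gcg, Insl5 and Pyy (36.4%). ZT18 over ZT0 and ZT18 over ZT6 separated only Pyy (27.5% and 38.0%), and ZT6 over ZT0 separated 0 (37.6%). Chga, Chgb, Tph1 and Neurod1 overlapped in every contrast.

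The libraries of 1 time point were far apart for these genes. The replicates differed over 2-fold for 5 of 7 at ZT0 (15.3% of all genes), 0 at ZT6 (7.55%), 5 at ZT12 (11.1%) and 5 at ZT18 (18.5%). At ZT0 and ZT18 the 5 were Chga, Chgb, Gcg, Neurod1 and Tph1, and at ZT12 Pyy took the place of Gcg. The SD within time points on the log2 scale was 2.29 for Neurod1, 1.17 for Chgb, 1.14 for Tph1, 0.91 for Chga, 0.69 for Gcg and 0.48 for both Insl5 and Pyy, with a median of 0.91 over the 7 and 0.29 over all genes tested. These values rank between the 72.9th percentile (Insl5, Pyy) and the 98.6th (Neurod1) of all genes.

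**Figure D2:**
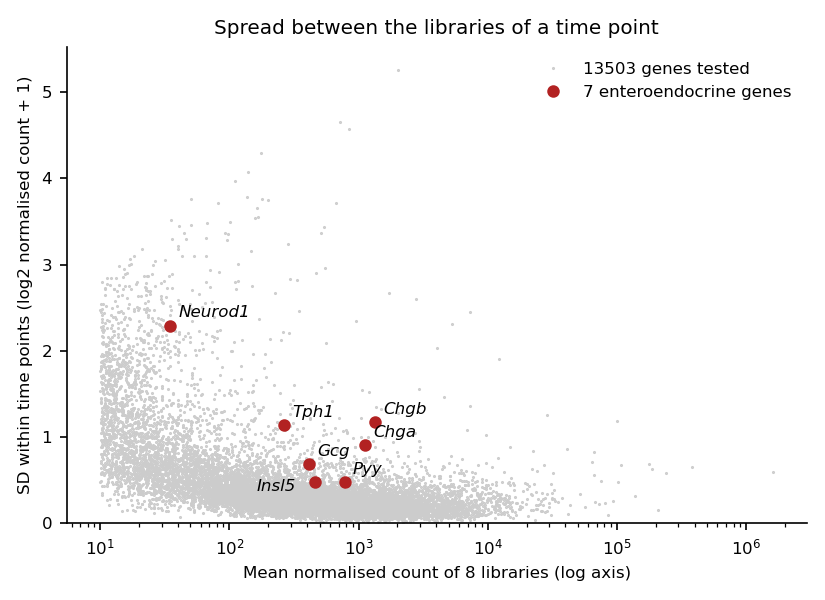
Standard deviation within time points (log2 normalised count + 1) against the mean normalised count of the 8 libraries (log axis) for all 13503 genes tested in grey and the 7 enteroendocrine genes in red. Neurod1 (2.29), Chgb (1.17) and Tph1 (1.14) have the widest spread of the 7, and Insl5 and Pyy (0.48 each) the narrowest.

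The direction of the difference within a time point split the genes. At ZT12 replicate 1 was above replicate 2 for Chga (3.18-fold), Chgb (3.45-fold), Tph1 (5.01-fold), Neurod1 (2.21-fold) and Gcg (1.11-fold), whereas Pyy and Insl5 were 2.17-fold and 1.96-fold higher in replicate 2. At ZT18 replicate 2 was above replicate 1 for Chga (3.15-fold), Chgb (5.95-fold), Tph1 (3.09-fold), Gcg (2.54-fold) and Neurod1, and Pyy and Insl5 were higher in replicate 1 (1.25-fold and 1.76-fold). At ZT0 only Insl5 was higher in replicate 1. At ZT6 only Gcg was higher in replicate 2. The ratio of Chga to Pyy therefore ranged 6.90-fold over the libraries, from 0.523 in ZT12 replicate 2 to 3.61 in ZT12 replicate 1, and that of Chgb to Chga 2.04-fold.

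Correlations over the 8 libraries were computed for the 21 pairs, on log2 values, with exact permutation p-values adjusted over the pairs. Chga with Chgb gave r = 0.98 and rho = 1.00 (adjusted exact p = 0.000521 and 0.00104), Chgb with Neurod1 r = 0.93 and rho = 0.93 (exact p = 0.00538 and 0.00938), and Chga with Tph1 r = 0.92 and rho = 0.93 (exact p = 0.00538 and 0.00938). Among Chga, Chgb, Tph1, Neurod1 and Gcg, 8 of 10 pairs passed by r and 6 by rho, with r from 0.63 to 0.98. This group of 5 genes was not planned and was drawn from these correlations. The counts of pairs inside and outside it are thus no separate test. Pyy with Insl5 gave r = 0.77 and rho = 0.52, which did not pass (adjusted exact p = 0.0714 and 0.413), and r was 0.38 without ZT12 replicate 2. The 10 pairs of Pyy or Insl5 with the other 5 genes ranged from -0.42 to 0.34 and 0 passed.

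Without the 2 libraries farthest from the median, which for Chga were ZT12 replicate 1 and ZT18 replicate 1, r was 0.96 for Chga with Chgb and 0.95 for Chga with Tph1, but 0.50 for Chga with Gcg, a relation that thus rests on those libraries. For Gcg the 2 were ZT0 replicate 1 and ZT18 replicate 1, without which r with Neurod1 was 0.04. The number of pairs that passed was 4 without ZT12 replicate 1 and 3 without ZT18 replicate 1. With each value centred on its time point, which leaves 4 independent differences, r was 0.98 for Chga with Chgb, 0.98 for Chga with Tph1, 0.68 for Pyy with Insl5 and -0.97 for Chga with Insl5. The granin and Tph1 pairing thus held between libraries of the same hour.

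**Figure D3:**
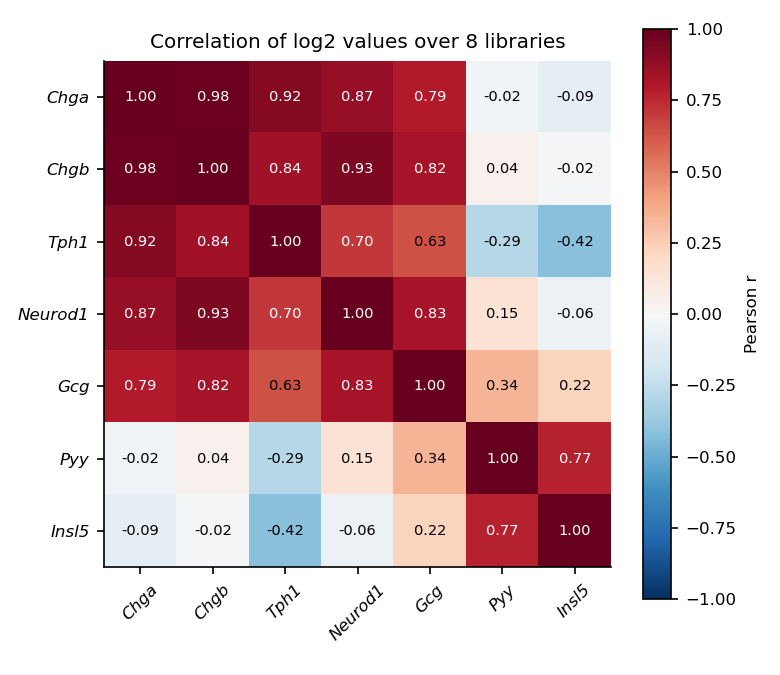
Pearson r between each pair of the 7 genes over the 8 libraries, on log2 normalised counts, with red positive and blue negative. Chga, Chgb, Tph1, Neurod1 and Gcg form a block with r from 0.63 to 0.98, while r is 0.77 for Pyy with Insl5, which did not pass, and from -0.42 to 0.34 for these 2 with the block.

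Markers of other cell types followed these patterns in some libraries and not in others. The smooth muscle and fibroblast lists peaked in ZT12 replicate 1 (median log2 deviations from the mean of the 8 libraries of 6.26 and 4.76), the library highest for Chga, Chgb, Tph1 and Gcg; their summed normalised counts ran from 6.95 to 3672 and from 3.22 to 2329 over the libraries, and Des was at 0 in ZT0 replicate 1. In ZT18 replicate 1, lowest for Chga, Chgb, Gcg and Neurod1, they were at -2.32 and -1.46. The smooth muscle list was equally low in ZT6 replicate 1 (-2.32), where Chga had 1132 normalised counts, and the fibroblast list was lowest in ZT18 replicate 2 (-3.15), where Chga had 1195 and Chgb 1474, above their means of 1116 and 1336. At ZT0 both lists were lower in replicate 1 than in replicate 2 (smooth muscle -2.65 and -0.08, fibroblasts -1.52 and 2.76). So were 6 of the 7 genes, among them Chga with 696 and 1406 normalised counts, and only Insl5 was higher in replicate 1. In ZT12 replicate 2, where the smooth muscle list was the next highest at 2.21, Tph1 was at its lowest (106), and Pyy (1415) and Insl5 (1081) at their highest. Gcg (550) was above its mean there, and Chga (740), Chgb (909) and Neurod1 (25.4) were below theirs. The part of smooth muscle and fibroblast content in the result was not tested. In ZT18 replicate 1 the goblet, tuft, colonocyte and epithelial lists were highest (0.49, 0.48, 0.44 and 0.26) and the stem and proliferating list lowest (-0.38). In ZT12 replicate 1 the colonocyte (-0.28) and epithelial (-0.21) lists were lowest and the endothelium list highest (1.95). The part of these lists was not tested. The enteric neuron markers, which share granins with enteroendocrine cells, were 3 of 9 in the table. Ret (49.6 normalised counts) and Chat (15.9) were highest in ZT12 replicate 1, and Uchl1 (28.3) in ZT6 replicate 1.

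The distal colon list holds Hox genes and others that mark the hind end of the gut, of which 4 of 5 were in the table. This list was highest in ZT12 replicate 2 (1.02) and lowest in ZT18 replicate 2 (-1.09), the libraries that were highest and lowest for both hormones; its summed normalised counts ran from 3326 to 9204. The sum was also high in ZT18 replicate 1 (9065) and ZT0 replicate 1 (8507), where Pyy (592 and 678) and Insl5 (367 and 424) were below their means of 781 and 460. For Hoxd13, as an example, ZT12 replicate 2 stood highest with 1980 normalised counts and ZT18 replicate 2 lowest with 295. ZT18 replicate 1 (1194) and ZT0 replicate 1 (1136) came next after the highest. In 7 correlations added after the values were seen, r with the list was 0.85 for Insl5 (rho 0.83; adjusted exact permutation p = 0.0788 and 0.0858) and 0.62 for Pyy, against -0.73 for Tph1 and -0.48 for Chga, and 0 of 7 passed. Without ZT12 replicate 2 and ZT18 replicate 2, r was 0.38 for Insl5 and -0.50 for Pyy, so the relation rests on those libraries. The share of distal colon in each library was not tested.

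The other enteroendocrine genes were in 5 lists of 64 genes, of which 51 were in the table and 47 were tested. They gave 0 calls with limma in the cosine, the F-test and the contrasts. At an unadjusted p under 0.05 the limma cosine took 5 (10.6%, against 9.15% of all genes) and the F-test 6 (12.8%, against 7.03%). DESeq2 called 3 for the cosine at an adjusted p under 0.05 (1.62% of all genes it adjusted). Many low genes among the 47 had no adjusted p there, so 3 of 47 is not on the same base as that share. Those 3 were Slc6a4, the serotonin transporter, Maoa, which breaks serotonin down, and Syt7, a calcium sensor of exocytosis. From ZT0 to ZT12 the normalised counts of Maoa went from 13329 and 12613 to 20027 and 19871, those of Slc6a4 from 257 and 166 to 529 and 437, and those of Syt7 from 662 and 658 to 2080 and 1145. Their DESeq2 adjusted p were 0.000569, 0.0134 and 0.00229, and absorptive epithelial cells also make Maoa and Slc6a4. Slc6a4 was named because of this call, after its values were seen.

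Among other gut hormones 6 of 12 were in the table. Sct, secretin, ran from 39.7 to 287 normalised counts, Nts, neurotensin, from 0 to 367, and Tac1, the substance P precursor, from 60.3 to 208. Ppy, pancreatic polypeptide, the neighbour of Pyy on chromosome 11 (102099930 to 102101319, minus strand), was highest at 165 in ZT12 replicate 2 and lowest at 32.2 in ZT18 replicate 2, the same libraries as Pyy; it was named after its values were seen. From ZT12 to ZT18 the log2 fold change was below 0 for all 7 hormone, granin, Tph1 and Neurod1 genes (median -0.996), 5 of 6 other hormones (-1.13), 11 of 11 granule and prohormone processing genes (-1.29), 9 of 11 transcription factors (-0.41), 3 of 6 serotonin genes (-0.03) and 7 of 13 sensing and exocytosis genes (-0.35). Over all genes tested it was below 0 for 52.0% (median -0.02), and limma called 0 of these genes in that contrast.

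In the granule list, Pam, which amidates peptides, ran from 1907 to 3135 normalised counts, Ptprn2, a granule membrane protein, from 77.8 to 667, and Pcsk1, a prohormone convertase, up to 357; 7 of 11 tested were lowest in ZT18 replicate 1 (19.2% of all genes) and 5 of 11 highest in ZT12 replicate 1 (19.9%). Among transcription factors the levels of Foxa1 (1256 to 1848) and Foxa2 (470 to 618) were even, while Insm1 ran from 0 to 58.1. In the serotonin list Ddc ran from 688 to 2069 and Gch1 from 276 to 748. In the sensing list Slc5a1, the glucose transporter SGLT1, ran from 2698 to 6133 and Ffar2, a short-chain fatty acid receptor, from 255 to 1406. For ZT12 over ZT0 DESeq2 called both (adjusted p 0.0322 and 0.00839, log2 fold change 0.83 and -1.57). It also called Syt7 (adjusted p 0.00179, log2 fold change 1.29) and Slc6a4 (0.0352 and 1.19) there. In this contrast it called 1.24% of the genes it adjusted and 0 of the 7, of which Neurod1 had no adjusted p. Over the 4 time points DESeq2 called Maoa, Syt7 and Slc6a4 (adjusted p 0.00777, 0.0147 and 0.0393), and 1.61% of all genes. For ZT18 over ZT12 it called Cpe, a carboxypeptidase of prohormone processing, and Maoa (adjusted p 0.0486 and 0.0357).

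In ZT18 replicate 1, 12 of the 51 list genes (23.5%) and Neurod1 had 0 reads, against 5.40% of all genes in the table; among tested genes alone it was 10 of 47 (21.3%), against 3.26%. In ZT0 replicate 1, 3 of the 51 were at 0, and in the other libraries 0. Among the 12, named after their values were seen, were Insm1, Rfx6, Lmx1a, Fev and Pax4, transcription factors of the lineage, and Scg2, Scg3, Snap25, Cck and Nts; Insm1 had 15 to 62 reads elsewhere and Nts 0 to 392. Of the 14 transcription factors in the table, 3 were instead highest in ZT18 replicate 1, also named after their values were seen. These were Neurog3, which acts earlier in the lineage than Neurod1, at 23.9 normalised counts (28 reads), Pax6 (35.9) and Hhex (49.6). The lowest value of Neurog3 was 2.81 (3 reads) in ZT12 replicate 1. Neurog3 also had 3 reads in ZT12 replicate 2, did not pass the filter on low values and was not tested. List genes are mostly low, and how far low level and library contributed was not tested.

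**Figure D4:**
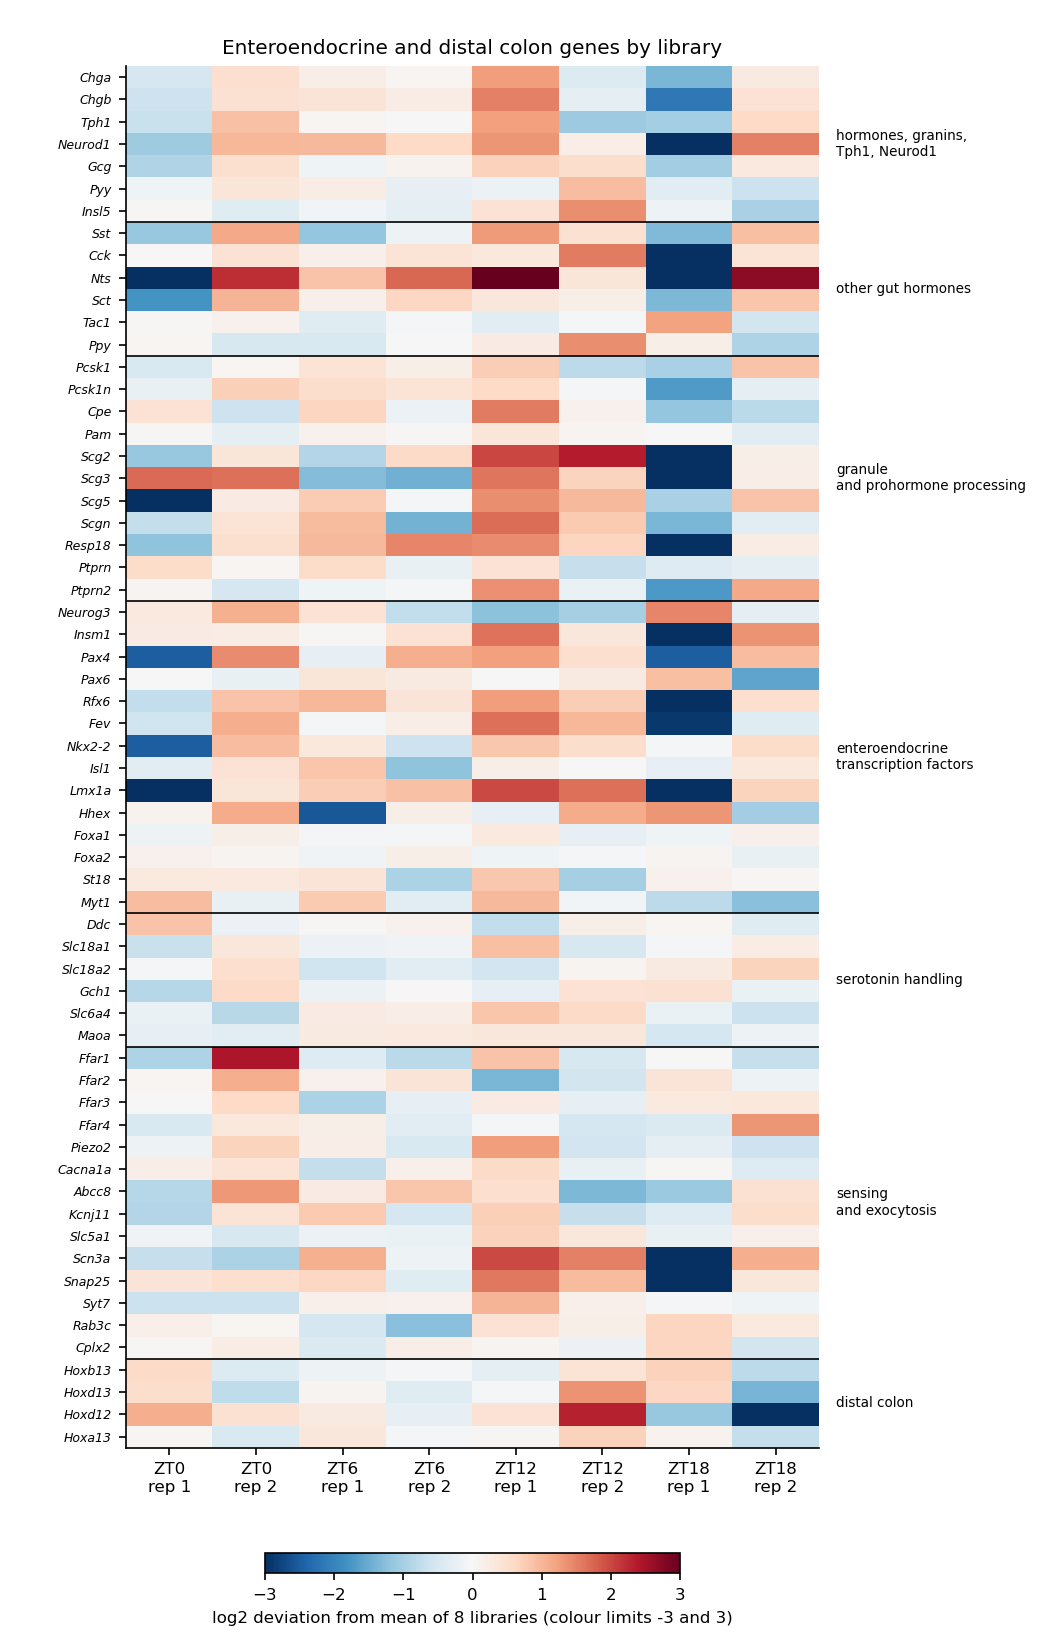
Log2 deviation of each gene from its mean over the 8 libraries (columns), for the 7 genes, the 5 other enteroendocrine lists and the distal colon list (rows, grouped), with colour limits of -3 and 3. In ZT18 replicate 1, 12 of 51 list genes were at 0 reads. The median there was -1.36 for the granule list and -1.34 for other hormones, but -0.19 for transcription factors and 0.36 for the distal colon list. Insl5, Pyy, Ppy and the Hox genes are red in ZT12 replicate 2.

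The genes in no list that followed the mean z-score of the 7 most closely over the 8 libraries were Lix1l (r = 0.98), Gm49668 (0.97), Syt13 (0.97), Tbcel (0.96), Thap12 (0.96), Gm38190 (0.95), Etv1 (0.95) and Vasn (0.95). All 8 were lowest in ZT18 replicate 1 and highest in ZT12 replicate 1. The mean z-score they were picked to follow has the same extremes (-1.39 and 0.91), so these follow largely from the choice. Likeness to 1 gene, added after the values were seen, gave Amer1 (0.99), Gm38155 (0.98), Dock9 (0.98), Timp2 (0.97) and Pacs1 (0.97) for Chga, and Ly6g6e (0.93), Wdr63 (0.93), Esrra (0.92), Gm13212 (0.90) and Snupn (0.90) for Pyy. This is a description over 8 libraries, with no p.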

How the data were processed

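RNA of 8 libraries was sequenced and, per the methods of the study, aligned by the authors with STAR to GRCm38; counting and strand use are not given in the sources used here. The labels name a different library kit from the methods, and captions give more mice per time point than the 2 libraries here. The deposited signal is a read count divided by 1 size factor per library by the authors, called the normalised count, and whole reads were recovered from its steps (100% of low values, within 0.01 read). The deposited table also holds a log2 fold change, error, score and p-values of the authors' own comparison, not used. Genes with a mean of at least 10 were fitted as log2(normalised count + 1) with limma 3.58.1 in R 4.3.3, all 8 libraries in 1 fit, Benjamini-Hochberg adjusted over all 13503 genes and called under 0.05; the added 1 shrinks ratios of low genes, while a library at 0 reads weighs heavily on a log scale, as for Neurod1. edgeR 4.0.16 and DESeq2 1.42.0 on recovered reads were alternatives. The code was tested on simulated data. The rank test compared 4 cosine orders exactly. Depth was 14722342 to 25159440 reads; a count of 0 allows 3 reads, counting error only. The genes and lists were chosen with earlier results of these data known. Named genes were the 7, list genes called or among the 3 highest of their list, the 8 most like the 7, Arntl and Dbp.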

Additional observations from a re-analysis of the deposited data

How the results depend on the processing

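The cosine called 0 of the 7 genes under all 18 alternatives (Neurod1 was not tested at a mean of at least 50). The rank test also gave 0, but no gene could pass its adjustment. The F-test and the 6 contrasts together gave 0 except with DESeq2, which gave 1 each, Insl5 both times; list genes called by the cosine were 0 except for 3 with DESeq2. With the replicate block all 4 counts were 0. The deviations of same-numbered libraries had r from -0.29 to 0.22 between time points. With 2 libraries per time point this cannot show whether the numbers pair the libraries. Without a library in turn, the log2 fold change from ZT0 to ZT12 ranged from -0.42 to 1.25 for Chga, -0.19 to 1.60 for Chgb, -0.31 to 0.81 for Pyy, -1.19 to 1.13 for Tph1 and -0.24 to 1.83 for Neurod1, each turning sign; that of Tph1, -0.03 as reported, was 0.20 with edgeR and 0.19 with DESeq2. Those of Gcg (0.14 to 1.52) and Insl5 (0.59 to 1.55) kept their sign. Cosine amplitudes over the alternatives ranged from 0.22 to 0.62 for Chga, 0.36 to 1.04 for Chgb, 0.29 to 0.79 for Gcg, 0.14 to 0.44 for Pyy, 0.27 to 0.79 for Insl5, 0.10 to 0.53 for Tph1 and 0.32 to 2.25 for Neurod1. The number of correlated pairs, 8 as reported, ranged from 3 to 10. The r of Chga with Pyy was near 0 and ranged from -0.32 to 0.22 without a library, with 0.0714 by rho and 0.0712 with scaling outside the mitochondrial genome; the cause was not tested. A lone library left at a time point is assumed to vary like the others. With 2 libraries per time point precision is low, and for Neurod1 it is also limited by depth (287 reads in all).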
